A study of Homo sapiens with 39 samples.

Results

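MV-4-11, a human acute myeloid leukemia line of myelomonocytic character that carries the KMT2A-AFF1 fusion and an internal tandem duplication in FLT3, was exposed to tamibarotene (SY-1425) and its transcript levels were compared with those of vehicle-treated cells. Its 6 arrays were taken by their sample titles from the 39 arrays of a study of 7 such lines: 3 treated and 3 vehicle arrays. Treated cells received tamibarotene at 100 nM, diluted to 50 nM in the culture, and vehicle cells received DMSO, both for 24 h. Total RNA was hybridised to Affymetrix PrimeView arrays. MV-4-11 is 1 established line, so the values describe that line and not a leukemia subtype. The labels give the arrays numbers but do not tie them to separate cultures. The p-values therefore measure only the spread between arrays of the same line and arm, which may be technical. That spread is pooled over all 39 arrays. The probe sets with exactly 1 gene symbol numbered 44988 of 49395 and named 18132 genes, each of which is represented by its probe set of highest mean over the 39 arrays.

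Tamibarotene is a synthetic retinoid that activates retinoic acid receptor alpha (RARA). Retinoic acid receptors pair with retinoid X receptors on direct repeats of a short half-site in DNA, hold target genes down together with corepressors when no ligand is present, and recruit coactivators once ligand binds. In myeloid cells retinoic acid is known for driving granulocytic maturation, which is the basis of its use in acute promyelocytic leukemia, and its earliest targets include the enzymes that remove it.

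Values are log2 RMA values, changes are tamibarotene minus vehicle on that scale, errors are standard errors (SE) of the limma fit, and a gene is said to have risen or fallen when its limma p-value, adjusted by Benjamini-Hochberg over all 18132 genes, was under 0.05. The MV-4-11 array medians ran from 5.02 to 5.09, within the range of 5.01 to 5.17 in the other 33 arrays. The difference between the 3' and 5' control probe sets for beta-actin, which grows with RNA degradation, ran from 0.07 to 0.17 in MV-4-11 against -0.02 to 1.89 elsewhere. Correlations across genes were 0.990 to 0.995 among treated arrays, 0.989 to 0.997 among vehicle arrays and 0.978 to 0.988 between the arms. The first principal component (49.5% of the variance) separated the arms, and along the second (34.3%) replicate 2 of both arms lay apart from the other arrays. With 3 arrays in each arm, their number sets how precise a value can be.

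The vehicle arrays were checked against the markers of the label. LYZ, the lysozyme of granulocytes and monocytes, stood at the 99.6th percentile of the array, FLT3 at the 88.1st, the myeloid carbohydrate antigen gene FUT4 at the 85.3rd, the monocyte growth factor receptor CSF1R at the 74.4th and CD4 at the 73.7th. FLT3, CSF1R, CD4 and MEIS1, a homeobox gene of KMT2A-rearranged leukemia, were each higher in MV-4-11 than in the vehicle arrays of the other 6 lines. The remaining markers were not highest in MV-4-11. SPI1 (60.9th percentile) ranked 2 among the 7 lines, LYZ, FUT4 and MEF2C (78.8th) ranked 3 and MPO (61.1st) ranked 4. The maturation markers CD14 (26.3rd percentile) and ITGAM (16.5th) were low, and CD33, HOXA9 and HOXA10 were not analysed here. Markers of T and NK cells, B cells and adherent cells had median percentiles of 36.8, 31.0 and 33.5, with 3 of 12 T and NK cell and 2 of 8 B cell markers above the array median and NKG7 (9.32) and PAX5 (8.79) the highest, and erythroid and megakaryocyte markers had 49.5.

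Of the 18132 genes, 1399 (7.72%) passed the test: 783 (4.32%) rose and 616 (3.4%) fell. A rise of at least 2-fold was seen in 236 genes (1.3%) and a fall of that size in 107 (0.59%). Rises were larger than falls: 72 genes rose and 19 fell at least 4-fold, 28 and 3 at least 8-fold, and 13 and 0 at least 16-fold. The 3 treated arrays did not overlap the 3 vehicle arrays in 772 of the risen and 609 of the fallen genes, against 9.32% of all genes with every treated array higher and 10.9% with every one lower. In vehicle, 34.7% of the 236 genes with large rises lay below the array median, against 13.1% of the 107 with large falls and 50.0% of all genes. Counts of list members that rose or fell are to be read against the shares of all genes, 4.32% and 3.4%. The lists were written with earlier results of these data known, which may have shaped their membership. Such counts are therefore descriptions and not tests. In cultures measured as a whole, a change in the share of cells that transcribe a gene and a change in the amount per cell cannot be told apart.

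**Figure D1:**
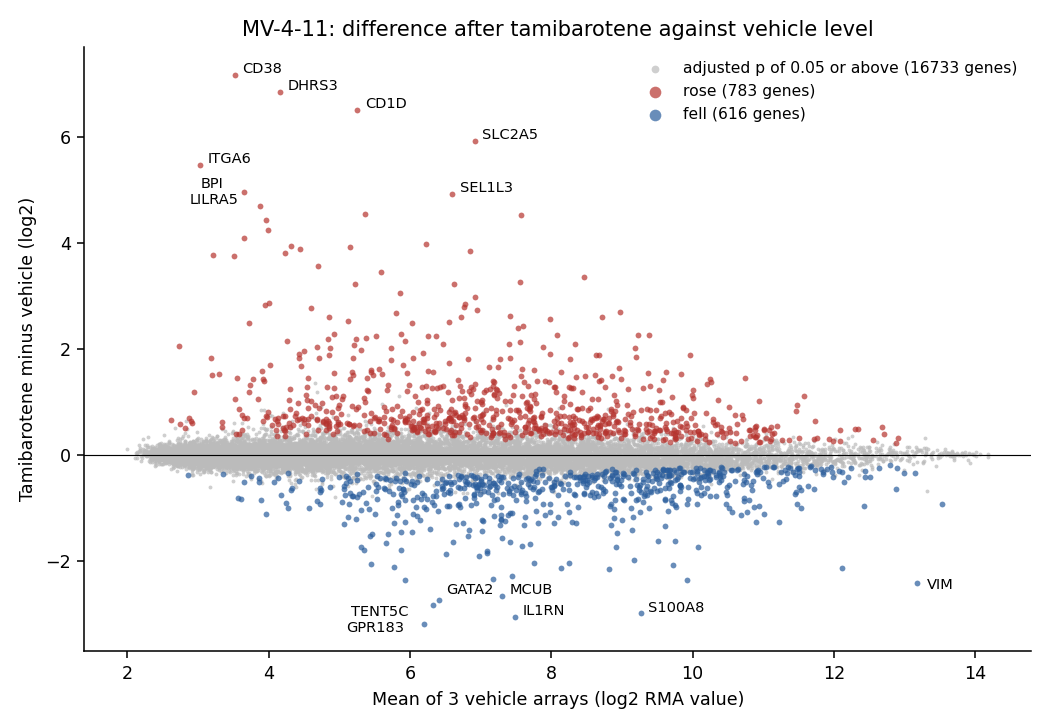
Each point is 1 of 18132 genes, placed by its mean on the 3 MV-4-11 vehicle arrays (x axis, log2 RMA value) and its change with tamibarotene (y axis, log2), with the 783 risen genes in red, the 616 fallen in blue and all others in grey. The rises reach 7.18 (CD38), while the lowest fall is -3.20 (GPR183).

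The choice of 1 probe set per gene mattered for some genes. Of the 236 genes with large rises, 156 had further probe sets, which all had the same sign in 146 genes and all passed the test in the same direction in 98. For the 107 large falls these numbers were 82, 77 and 38. No gene of either group had a further probe set that passed in the opposite direction. In the other direction, 51 genes outside these groups had a further probe set that rose at least 2-fold and 44 had one that fell as much.

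Known targets of the receptor come first, in a list that was also written with earlier results of these data known. In all, 9 of 25 measured retinoic acid-induced genes rose while none fell, against 4.32% and 3.4% of all genes. CD38, an ectoenzyme that consumes NAD and a classical retinoic acid target of myeloid cells, measured 10.75, 10.70 and 10.66 on the treated arrays and 3.36, 3.40 and 3.79 on the vehicle arrays. This change of 7.18 ± 0.12 (145-fold, adjusted p = 1.18e-27) was the largest in the line, and the gene went from the 16.9th percentile of the array to far above its median. DHRS3, which reduces retinaldehyde back to retinol, measured 10.99, 11.01 and 11.04 against 4.53, 3.85 and 4.08. Its change was 6.86 ± 0.17 by that probe set and 4.80 and 1.10 by its others, and the arms did not overlap. CYP26A1, the hydroxylase that degrades retinoic acid, measured 6.86, 7.03 and 7.08 against 3.44, 2.95 and 3.23, a change of 3.78 ± 0.15 (adjusted p = 1.29e-18).

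The promoter of CYP26A1 is shown because it holds the kind of repeat that retinoic acid receptors bind. Promoters from 250 bases before to 50 bases after the start were taken from RefSeq (GRCh38.p14) and searched on both strands for direct repeats of the half-sites AGGTCA or AGTTCA or GGGTCA or GGTTCA (any pair of these) with 1, 2 or 5 bases between them. Of the 236 genes with large rises, 182 had a promoter entry and 2 of these (1.1%) held such a repeat, against 0.33% of the 14425 tested genes with an entry and 0.26% of all 35116 promoters. None of the 90 genes with large falls that had an entry held one. Both repeats had 5 bases between the half-sites. The repeat of CYP26A1 lies on the opposite strand, with its first base at position -90 from the start (chr10:93073643-93073942, plus strand). That of BATF2 lies on the gene's own strand at position -29 (chr11:64990228-64990527, minus strand). Capitals mark the half-sites in these sequences, written 5′ to 3′ on the gene's strand.
CYP26A1: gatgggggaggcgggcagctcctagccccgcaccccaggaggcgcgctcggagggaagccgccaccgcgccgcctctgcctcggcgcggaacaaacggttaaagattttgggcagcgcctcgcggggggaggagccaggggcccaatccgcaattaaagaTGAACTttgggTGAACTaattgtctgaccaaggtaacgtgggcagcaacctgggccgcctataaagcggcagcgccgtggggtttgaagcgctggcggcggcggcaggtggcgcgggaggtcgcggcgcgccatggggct
BATF2: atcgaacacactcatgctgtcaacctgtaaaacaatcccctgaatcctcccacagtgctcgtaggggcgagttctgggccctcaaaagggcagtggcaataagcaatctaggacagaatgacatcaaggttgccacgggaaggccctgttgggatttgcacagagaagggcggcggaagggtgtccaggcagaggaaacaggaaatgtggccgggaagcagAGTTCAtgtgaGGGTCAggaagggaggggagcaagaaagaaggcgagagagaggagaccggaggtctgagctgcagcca

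BATF2, a basic leucine zipper factor singled out by the promoter search, measured 5.50, 5.35 and 5.62 on the treated and 4.05, 3.84 and 3.84 on the vehicle arrays, a change of 1.58 ± 0.18 (adjusted p = 5.84e-08). The repeats are matches of letters only, and the other genes with large rises may hold such repeats outside these windows.

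The other retinoic acid-induced genes that rose were PLAAT4, a phospholipase and acyltransferase found as a retinoid responder (3.81), ID1, which keeps helix-loop-helix factors off DNA (2.60), PRAM1, an adaptor of maturing granulocytes (2.02), ASB2, a ubiquitin ligase subunit (1.61), TGM2 (0.54) and HIC1 (0.49). PLAAT4 had further probe sets at 3.74 and -0.02. TGM2, the tissue transglutaminase of retinoid-treated myeloid cells, differed between probe sets. By another of them it measured 8.93, 9.01 and 9.14 on the treated arrays and 3.76, 3.49 and 3.70 on the vehicle arrays. That change of 5.38 ± 0.22 passed the limma test over all probe sets (adjusted p = 3.10e-18), and the remaining probe sets stood at 1.99 and 0.82. HIC1, a transcriptional repressor, likewise reached 1.90 by another probe set, and its own call was lost without tamibarotene replicate 2 or vehicle replicate 1 (adjusted p of 0.0961 to 0.0993, a range that includes the fit of the MV-4-11 arrays alone).

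The 16 retinoic acid-induced genes that did not pass included RARB, a textbook target, at -0.15 ± 0.12 with overlapping arms. Its values were 4.54, 4.64 and 4.91 against 4.73, 5.01 and 4.79. CYP26B1, a sister enzyme of CYP26A1, stood at 0.04 by its brighter probe set and at 1.14 by the other (adjusted p = 1.24e-07 over all probe sets). CRABP2, the cellular carrier of retinoic acid, was at -0.06, STRA6, a receptor for retinol uptake, at 0.18, and CEBPE, a granulocytic transcription factor, at 0.21.

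Among 21 measured enzymes and carriers of retinol and retinaldehyde, only DHRS3 and CYP26A1 rose and DHRS9 fell. DHRS9, an oxidoreductase that acts on retinol, was at -0.49 ± 0.15 (adjusted p = 0.0382) and lost its call in 7 of 14 alternative settings. The retinol dehydrogenase RDH10 was at -0.46 and did not pass.

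Among the receptors and their cofactors, a few fell and none rose by the chosen probe sets. RARA measured 8.51, 8.34 and 8.55 on the treated arrays and 8.33, 8.40 and 8.41 on the vehicle arrays, and did not pass (0.08 ± 0.16). RARG was at 0.13 ± 0.10 and RXRB at 0.08. RXRA, the usual partner of RARA, measured 9.07, 8.92 and 9.42 against 10.02, 9.79 and 10.39 and fell by 0.93 (SE 0.13, adjusted p = 5.62e-06), with its other probe set at -0.85. TBL1X, a subunit of the corepressor complex, fell by 1.19 (SE 0.13). RXRA and TBL1X were the 2 of 17 measured receptors and cofactors that fell. NRIP1, a ligand-dependent corepressor known as a retinoic acid target, was at 1.10 with the widest error of the list (SE 0.51) and overlapping arms, and its adjusted p of 0.269 became 0.0186 and 0.0133 under the replicate block and array weights. The other NRIP1 probe set rose by 1.40 (limma adjusted p = 0.0344 over all probe sets).

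**Figure D2:**
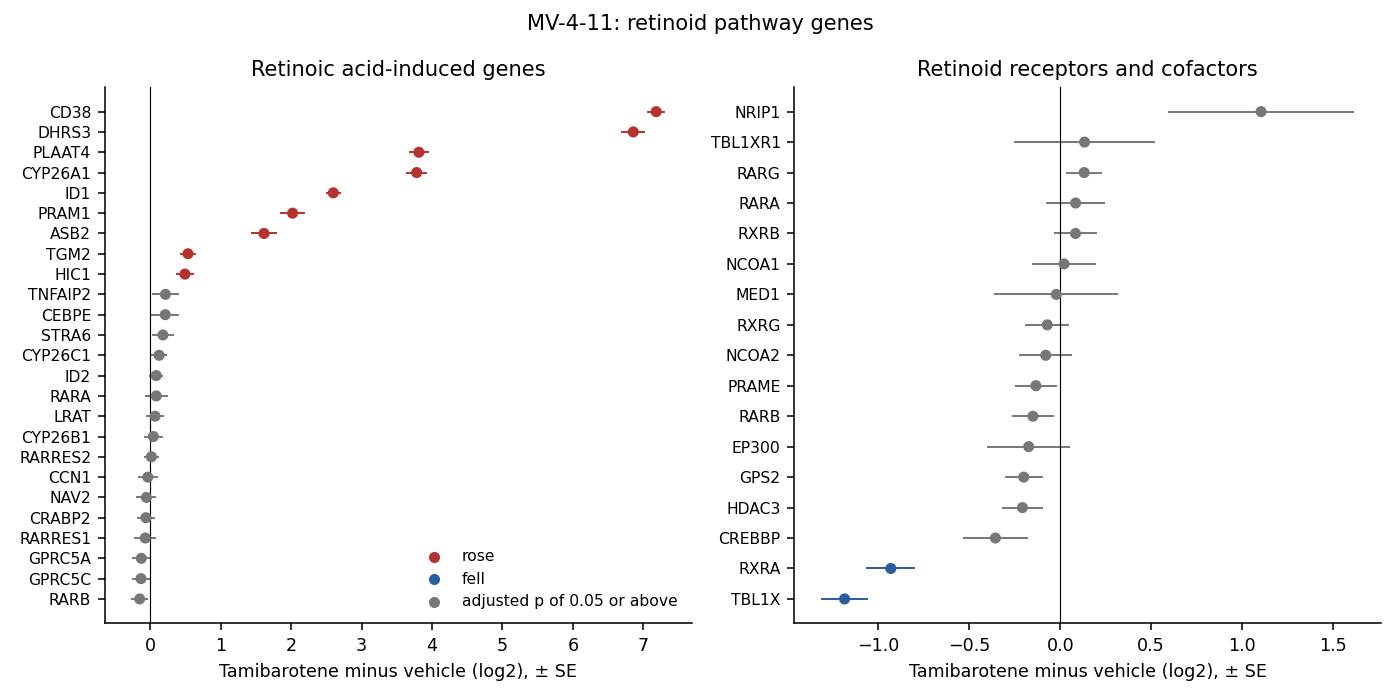
Change with tamibarotene in MV-4-11 (log2, x axis; points are the limma estimates over 3 arrays in each arm and bars are ± SE) for the 25 retinoic acid-induced genes at left and the 17 retinoid receptors and cofactors at right. At left 9 genes rose, from HIC1 (0.49) to CD38 (7.18), and at right TBL1X and RXRA fell.

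Some integrin genes rose strongly. ITGA6, the laminin-binding integrin alpha 6, measured 8.61, 8.96 and 7.93 on the treated arrays and 2.97, 3.35 and 2.77 on the vehicle arrays. It rose by 5.47 ± 0.27 (44.4-fold), and its other probe sets stood at 2.12 to 4.42. ITGAM, the CD11b chain that marks mature myeloid cells, measured 7.14, 7.38 and 7.25 against 3.83, 3.03 and 3.64, a change of 3.75 ± 0.18, with 0.82 and 2.89 by its other probe sets. Of 22 integrins and their ligands, 8 rose and 2 fell, with a median of 0.22 against -0.01 over all genes. ITGA7, an integrin chain that fell by 2.05, is not in this list. The further rises were those of the adhesion ligand ICAM1 (1.56), the fibronectin receptor chain ITGA5 (1.01), ICAM3 (1.01), ICAM2 (0.67), ITGAE (0.67) and ITGB5 (0.64). ITGB2, the partner chain of ITGAM, was at 0.10 and did not pass. CD47, the signal that restrains phagocytes, fell by 0.75, as did SELPLG, the selectin ligand, by 0.66.

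Neutrophil receptors beyond ITGAM mostly did not pass the test. LRG1, a secreted glycoprotein stored by neutrophils, measured 10.81, 11.01 and 10.64 against 7.69, 7.39 and 7.58 and rose by 3.27 ± 0.15 (9.63-fold). Of the 18 measured neutrophil receptors and surface markers, LRG1 and ITGAM rose and ANPEP, the aminopeptidase CD13, was called lower at -0.80. The ANPEP arms overlapped, and its call was lost in 5 settings, among them the omission of tamibarotene replicate 2 or 3 or vehicle replicate 1. The receptors CSF3R (0.12), CXCR1 (0.01), CXCR2 (0.28) and FPR1 (0.12) did not pass. FPR2, a formyl peptide receptor, was at 0.39 by its brightest probe set and at 1.70 by another (adjusted p = 1.77e-13 over all probe sets).

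The granule genes divided. BPI, the bactericidal protein of primary granules, measured 8.60, 8.71 and 8.54 on the treated arrays and 3.47, 3.52 and 3.95 on the vehicle arrays, a rise of 4.97 ± 0.14 (31.3-fold, adjusted p = 1.60e-22). Other genes of the primary granule list went down or did not pass: 1 of 15 rose and 4 fell. CTSG, cathepsin G, fell from 12.15, 12.04 and 12.14 to 9.90, 9.88 and 10.14, a change of -2.14 ± 0.12. CST7, the cystatin that restrains granule proteases, fell by 2.15 and RNASE2 by 1.27. RNASE2 is an eosinophil ribonuclease and is counted again in the list of eosinophil, basophil and mast cell genes. ELANE, neutrophil elastase, was at -0.42 ± 0.12 (adjusted p = 0.0233) and lost its call in 5 settings, among them the omission of either tamibarotene replicate 1 or 2, and of vehicle replicate 1 or 3. MPO, myeloperoxidase, was at -0.54 (adjusted p = 0.060) and passed in 7 of 14 settings (adjusted p of 0.00136 to 0.0486), among them the replicate block and the omission of tamibarotene replicate 3 or vehicle replicate 2. PRTN3 was at 0.04.

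Of 18 measured secondary and tertiary granule genes, CHI3L1 rose (5.6%, near the 4.32% of all genes) and none fell. CHI3L1, a chitinase-like glycoprotein, measured 11.74, 11.79 and 11.94 against 8.61, 8.29 and 8.50, a change of 3.36 ± 0.17. The classical secondary granule genes LTF (0.04), CAMP (0.04), LCN2 (0.04), MMP8 (0.00) and CEACAM8 (-0.10) did not pass. None of the 5 measured NADPH oxidase subunits passed. CYBB, the catalytic subunit, was at -0.32 ± 0.25, and its values of 3.94, 3.58 and 4.07 against 4.27, 4.21 and 4.08 lay low on the array.

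Monocyte genes went down more often than up, with 7 of 27 fallen and 1 risen, against 3.4% and 4.32% of all genes. S100A8, a calcium-binding subunit of calprotectin, measured 6.47, 6.09 and 6.23 on the treated arrays and 9.16, 9.31 and 9.33 on the vehicle arrays, a change of -3.001 ± 0.11 (8.01-fold lower, adjusted p = 5.06e-19). Its partner S100A9 was at -0.08. IL1RN, the interleukin-1 receptor antagonist, measured 4.67, 4.35 and 4.23 against 7.68, 7.12 and 7.67 and fell by 3.07 (SE 0.16). The further falls were those of the fractalkine receptor CX3CR1 (-1.34), the monocytic transcription factor KLF4 (-1.29), MS4A7 (-1.11), TLR2 (-0.996) and the galectin LGALS3 (-0.84). The second probe set of KLF4 was at -0.04. CD68, a lysosomal glycoprotein of macrophages, rose by 0.84, and CD14 (0.30), CSF1R (0.16) and IRF8 (-0.29) did not pass.

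Of 12 eosinophil, basophil and mast cell genes 4 fell (33.3%, against 3.4% of all genes), and the other 8 did not pass. GATA2, a transcription factor of progenitors and of mast cells and basophils, measured 4.12, 3.60 and 3.25 against 6.53, 6.13 and 6.56 and fell by 2.75 (SE 0.18, 6.73-fold lower), and its other 5 probe sets ran from -1.91 to -0.11. PRG2, the eosinophil major basic protein, fell by 2.04, FCER1A, the IgE receptor alpha chain, by 1.86 and RNASE2 by 1.27. In each of these 4 genes every treated array lay below every vehicle array.

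The lists of progenitor and KMT2A fusion-associated genes come next. BCL11A, a zinc finger repressor of progenitors, measured 7.11, 7.35 and 7.06 against 9.29, 8.98 and 9.25 and fell by 1.997 (SE 0.19), with its other 7 probe sets from -2.13 to -0.19. HHEX, a homeobox factor, fell by 0.85 and HLX rose by 0.61, so 1 of 22 rose and 2 fell. Under the replicate block, and again without the Kasumi-1 and Sig-M5 arrays, 4 fell. None of the 15 measured KMT2A fusion-associated genes passed, where the background was 7.72%. In a list of this size a count of none is little below the background. The list has 26 members, and its HOXA genes, among them HOXA9 and HOXA10, were not analysed here. The count therefore does not describe them. MEIS1 was at 0.28, MEF2C at -0.02 and CDK6 at -0.39. FLT3 measured 9.65, 9.93 and 9.14 against 9.11, 10.23 and 9.04, and its arms overlapped.

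Among 21 myeloid differentiation transcription factors 2 rose and 4 fell. CEBPB, a leucine zipper factor of emergency granulopoiesis, measured 11.07, 11.04 and 11.25 against 10.04, 9.72 and 10.24 and rose by 1.12 ± 0.14. EGR1, an immediate early zinc finger factor, rose by 0.66. KLF4 fell, as did FOSL2 (-1.03), NAB2, a corepressor of EGR proteins (-0.71), and KLF6 (-0.55). CEBPA (0.11), SPI1 (-0.28) and CEBPE (0.21) did not pass. The KLF6 call was lost without replicate 2 of either arm (adjusted p of 0.0786 and 0.115).

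Feedback genes of the ERK pathway rose in 9 of 18 cases and fell in 1, with a median of 0.40 against -0.01 over all genes and -0.05 for the same list in the mean of the other 6 lines. Over the alternative settings the count of rises ran from 6 to 9. PHLDA1, a pleckstrin-domain protein induced by growth factor signals, measured 6.07, 6.27 and 6.25 on the treated arrays and 3.999, 3.35 and 3.80 on the vehicle arrays, a rise of 2.48 ± 0.17 (adjusted p = 7.31e-13). Its other probe sets stood at 1.19, 0.48 and 0.23, and only the first of these passed over all probe sets. The ERK phosphatase DUSP4 measured 6.51, 6.71 and 6.88 against 5.55, 4.63 and 5.38 and rose by 1.51 ± 0.17. IER3 (1.97), the receptor tyrosine kinase antagonist SPRY2 (1.20), EGR1 (0.66), the phosphatases DUSP5 (0.66) and DUSP6 (0.61), ETV5 (0.61) and FOSL1 (0.49) rose as well. DUSP1, a nuclear phosphatase, fell by 1.17, and FOS (-0.07), SPRY4 (0.05) and CCND1 (-0.26) did not pass. The other probe sets of DUSP1 ran from -0.34 to -0.15 and did not pass over all probe sets. Of the outputs of FLT3 and STAT5, PIM1, a survival kinase, rose by 1.07 and OSM, a cytokine, fell by 0.94, while SOCS2 (0.19), CISH (-0.20) and MYC (-0.28) were among the 15 of 17 that did not pass.

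Some antigen presentation genes rose in each of 3 lists, where 4.32% of all genes rose. No member fell, in lists of 5 to 14 genes with a background of 3.4%. CD1D, which presents lipids to NKT cells, measured 11.81, 11.75 and 11.73 against 5.41, 4.87 and 5.47, a rise of 6.51 ± 0.14 (91.2-fold), with its dimmer probe set at 0.51. CD1C rose by 0.59, and CD1A, CD1B and CD1E did not pass, so 2 of 5 rose. The CD1C call was lost without tamibarotene replicate 3, vehicle replicate 1 or vehicle replicate 2, which left 1 of 5. Of 14 class II genes 3 rose: the lysosomal thiol reductase IFI30 (11.64, 11.61 and 11.68 against 9.50, 9.30 and 9.34), the peptide-loading chain HLA-DMA (1.08) and HLA-DPA1 (0.72). The master regulator CIITA was at 0.07 and CD74 at 0.20. Of 14 class I genes 5 rose, the non-classical HLA-F by 1.33, the immunoproteasome subunits PSMB9 and PSMB10 by 0.54 and 0.53, HLA-E by 0.37 and HLA-C by 0.29. Without tamibarotene replicate 3, or without vehicle replicate 2, or with MV-4-11 fitted alone, the class I count was 3. HLA genes share sequence, and their probe sets can cross-hybridise.

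Of 37 interferon-stimulated genes 8 rose and none fell, against 4.32% and 3.4% of all genes. GBP4, a guanylate-binding GTPase, measured 6.96, 6.71 and 6.51 against 4.88, 4.78 and 4.40, a rise of 2.04 ± 0.18. IRF1, a transcription factor that is also a known retinoid target, measured 9.51, 9.49 and 9.57 against 8.30, 8.10 and 8.36, a rise of 1.27 ± 0.09. IFI6 (1.57), IFI35 (1.37), IFITM3 (0.90), IRF9 (0.64), IFITM2 (0.53) and IFITM1 (0.48) also rose. The classical interferon responders MX1 (0.10), IFIT1 (0.12), ISG15 (0.09), OAS1 (0.14) and RSAD2 (-0.06) did not pass.

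Chemokines and chemoattractant receptors changed in both directions. CCL2, the monocyte chemoattractant, measured 8.29, 8.24 and 8.17 on the treated arrays and 4.04, 3.86 and 4.07 on the vehicle arrays, a rise of 4.24 ± 0.17 (18.9-fold). CCL5 measured 9.89, 9.88 and 10.04 against 7.68, 7.21 and 7.71, a rise of 2.40 ± 0.15. CXCL8 rose by 0.90, a call lost in the fit restricted to the MV-4-11 arrays (adjusted p = 0.0536), while IL1B (0.36), TNF (-0.15) and NFKBIA (-0.33) did not pass, and 4 of the 23 members of this list rose and 1 fell. GPR183, the oxysterol receptor that positions immune cells in tissue, measured 3.13, 3.09 and 2.80 against 5.94, 6.88 and 5.79, the largest fall of the line at -3.20 ± 0.21 (9.17-fold lower). Of 20 chemoattractant and purine receptors 4 rose, the ATP-gated channels P2RX5 (2.02) and P2RX1 (0.53), the chemokine receptor CCR1 (1.73) and the leukotriene receptor LTB4R (0.97). Besides GPR183, CXCR4 (-0.57) and P2RY2 (-0.51) fell.

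Sugar transport and metabolism genes rose in 8 of 16 cases (4.32% of all genes) and fell in 1 (3.4% of all genes). SLC2A5, the fructose transporter, measured 12.81, 12.82 and 12.91 on the treated arrays and 6.91, 6.77 and 7.06 on the vehicle arrays, a rise of 5.93 ± 0.12 (61.1-fold, adjusted p = 9.24e-26), with 0.38 to 6.03 by its other probe sets. FBP1, the phosphatase that reverses a committed step of glycolysis, measured 10.60, 10.70 and 10.81 against 6.90, 6.73 and 6.93 and rose by 3.85 ± 0.19. The transporters SLC2A6 (1.60), SLC2A14 (1.09) and SLC2A1 (0.43), the regulatory enzymes PFKFB4 (1.03) and PFKFB2 (0.70) and the myeloid hexokinase HK3 (0.80) rose, and HK2 fell by 0.76. The PFKFB2 arms overlapped. The ketohexokinase gene KHK, which acts on the fructose that SLC2A5 carries, was at 0.04.

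Lipid genes with large rises included APOC1 and ALOX12. APOC1, an apolipoprotein of macrophages, measured 10.26, 10.23 and 10.18 against 6.31, 6.16 and 6.22 and rose by 3.99 ± 0.08 (15.9-fold). One further APOC1 probe set was at 4.58 and the other 3 between 0.07 and 0.36. ALOX12, a lipoxygenase of arachidonic acid, measured 8.97, 9.32 and 8.95 against 5.16, 4.61 and 5.67, a rise of 3.94 ± 0.18. PLIN2, a lipid droplet coat protein, rose by 1.02 and LPCAT3 by 0.48, and CPT1A, the gate of mitochondrial fatty acid import, fell by 0.71, so 3 of 16 lipid uptake and nuclear receptor target genes rose and 1 fell. The LPCAT3 call was lost without tamibarotene replicate 2 or 3 or vehicle replicate 2. Of 20 genes of cholesterol and fatty acid synthesis, DHCR7 (1.30) and SQLE (0.86) rose.

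The remaining large rises were those of SEL1L3 (4.93), the leukocyte receptors LILRA5 (4.70) and LILRB2 (4.10), SCIMP, a membrane adaptor of antigen-presenting cells (4.56), MYBPH, a myosin-binding protein (4.54), CLIC3, a chloride channel family member (4.45), the cytokine receptor IL31RA (3.94), the collagen COL8A2 (3.89), RHBDL3 (3.56) and the GTPase RHOQ (3.45). Across the 24 largest rises the SE ran from 0.08 to 0.27, and across the 20 largest falls from 0.09 to 0.22. LILRA5 measured 8.53, 8.49 and 8.70 against 4.07, 3.94 and 3.61, and LILRB2, an inhibitory receptor for class I molecules, 7.68, 7.88 and 7.73 against 3.56, 3.33 and 4.08. COL8A2 was at 0.81 and IL31RA at 0.32 to 1.72 by their other probe sets.

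The remaining large falls began with TENT5C, a poly(A) polymerase (-2.83), MCUB, an inhibitory subunit of the mitochondrial calcium channel (-2.66), VIM, the intermediate filament vimentin (-2.43), and CLEC12A, an inhibitory lectin of myeloid blasts (-2.37). They went on with the actin-oxidising enzyme MICAL2 (-2.37), GSAP (-2.35), the sphingosine phosphate receptor S1PR3 (-2.30), IGLL1, a surrogate light chain of B cell progenitors (-2.16), NIBAN1 (-2.12), the matrix protein TGFBI (-2.09), the growth factor PDGFC (-2.06) and the integrin ITGA7 (-2.05). VIM measured 10.76, 10.74 and 10.74 against 13.20, 13.10 and 13.24, from the 99.5th percentile of the array. CLEC12A measured 3.96, 3.39 and 3.33 against 5.44, 6.30 and 6.06. The other probe sets of NIBAN1 were at -0.29 and -0.06, those of TENT5C at -1.80 and -0.16 and those of MICAL2 between -2.02 and 0.05. Those of PDGFC were at -0.61 and -0.55 and did not pass.

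**Figure D3:**
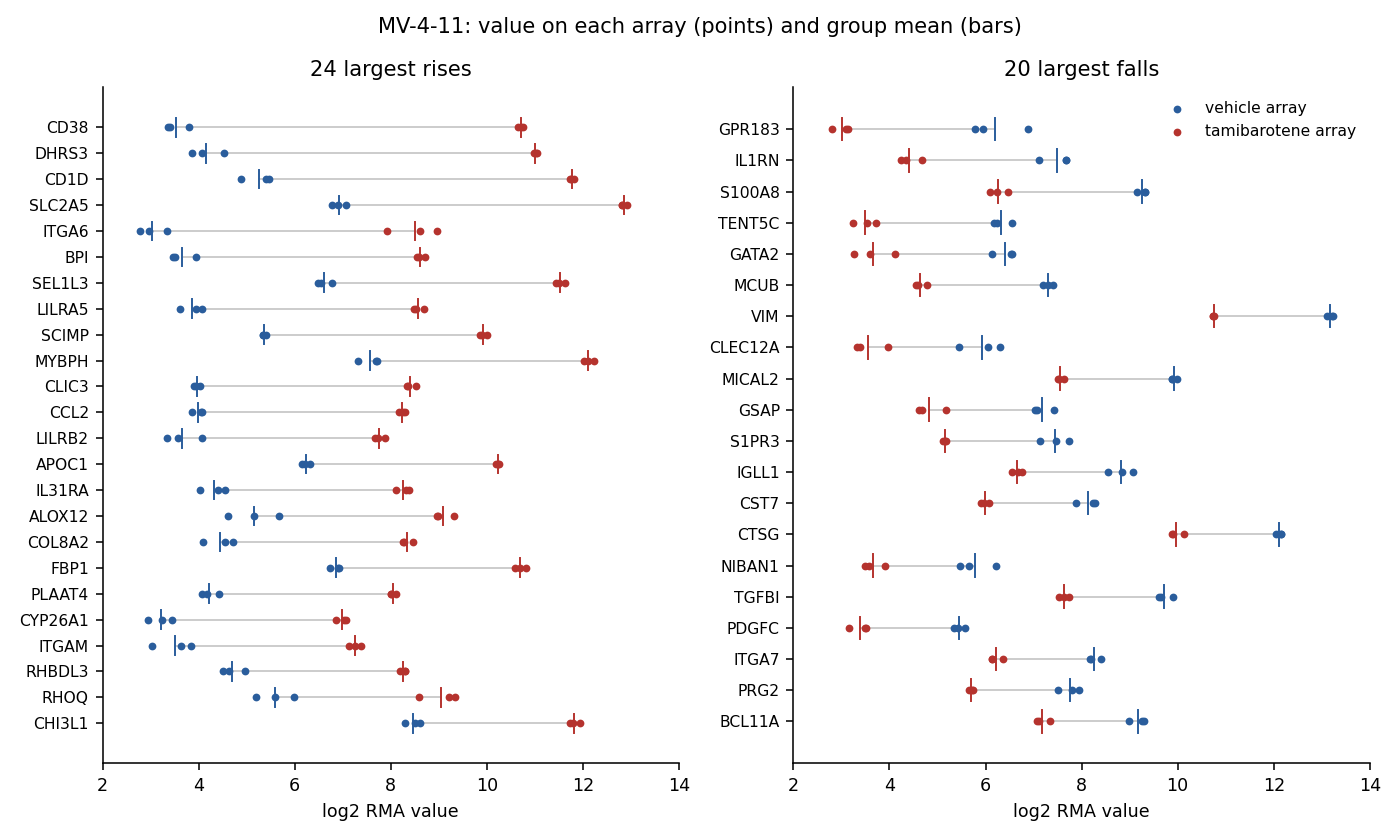
Log2 RMA value on each of the 3 tamibarotene arrays (red points) and 3 vehicle arrays (blue points) of MV-4-11, with vertical bars at the arm means, for the 24 largest rises at left and the 20 largest falls at right. The arms do not overlap in any of these genes, a condition of their choice, and the spread within an arm is small beside the distance between the arms.

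Proliferation genes that passed fell by less than 1 on the log2 scale. Over all genes 3.4% fell. Of 29 DNA replication genes E2F1 (-0.43) and CCNE1 (-0.39) fell, or 6.9%, and of 30 mitosis genes PLK1 (-0.40), BIRC5 (-0.33) and CDC20 (-0.31) fell, or 10%. None of either list rose. MYC measured 12.22, 12.28 and 12.28 against 12.56, 12.52 and 12.54 and did not pass (-0.28 ± 0.10, adjusted p = 0.111). Of 31 genes of the MYC network and ribosome biogenesis, MXI1, an antagonist of MYC, fell by 0.79 and NOP56 by 0.33, and the list's median was -0.21. The replication count was 1 when any one tamibarotene array or vehicle replicate 1 was left out, and 0 without vehicle replicate 3. The mitosis count was 1 when tamibarotene replicate 1 or 2, or vehicle replicate 1, was left out, and 0 without vehicle replicate 3. With MV-4-11 fitted alone the replication, mitosis and MYC counts were 0, 0 and 1, and over the other settings the MYC count reached 13.

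Of the cyclin-dependent kinase inhibitors and antiproliferative genes, CDKN2D (0.70) and GADD45A (0.60) rose, BTG1 was called lower at -0.29 and CDKN1A was at 0.14. The apoptosis guard BCL2 measured 6.83, 6.91 and 6.53 against 7.84, 8.62 and 7.67 and fell by 1.29 (SE 0.29, adjusted p = 0.00311), and BMF, its antagonist, was at 0.43, while MCL1 (0.15) and 16 more of the 19 family members did not pass. The BMF call was lost without tamibarotene replicate 2 or 3 or vehicle replicate 2, and the BTG1 call without any one of the 6 arrays. Among p53 targets TP53I3 rose by 1.27, TNFRSF10B was at -0.39 and DDB2 at -0.37, and the count of 2 falls became 1 without any one array but vehicle replicate 2.

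TGF-beta and BMP outputs rose in 3 of 15 cases, ID1 (2.60), the signal transducer SMAD3 (1.19) and its inhibitor SMAD7 (0.70), and fell in 2, TGFBR2 (-0.60) and ID3 (-0.49). Only 1 of these falls passed when tamibarotene replicate 1 or 3, or else vehicle replicate 2 or 3, was left out, and the SMAD7 call was lost without tamibarotene replicate 3 or vehicle replicate 2. Other SMAD7 probe sets were at -0.002 and 0.28 and did not pass. XBP1, a transcription factor of the secretory pathway, measured 12.68, 12.75 and 12.65 against 11.53, 11.60 and 11.61 and rose by 1.11 ± 0.11. HERPUD1 (0.56) rose with it, and 5 of 22 amino acid supply and ER stress genes fell, among them PHGDH (-0.66) and TRIB3 (-0.55). That count was 2 or 3 without any one array but vehicle replicate 2, and 2 under the replicate block. In 9 heat shock genes HSPB1 rose by 0.57 and HSP90AB1 was at -0.42.

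Markers of other lineages and reference genes are read against the 7.72% of all genes that passed. No T and NK cell marker (12) and no adherent cell marker (12) passed, and their summed levels overlapped between arms (57.48 to 61.21 treated and 59.35 to 61.05 vehicle for T and NK cells). Of 8 B cell markers BLK, a Src-family kinase, rose by 1.06 (2.53 by its other probe set), with the list's summed level at 38.63 to 39.49 against 38.32 to 39.19. Of 9 erythroid and megakaryocyte markers KLF1 was at -0.50, a call lost without tamibarotene replicate 2 or any one vehicle array. Of 12 reference genes GUSB, a lysosomal glucuronidase, rose by 1.04, while GAPDH and ACTB were both at -0.10.

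**Figure D4:**
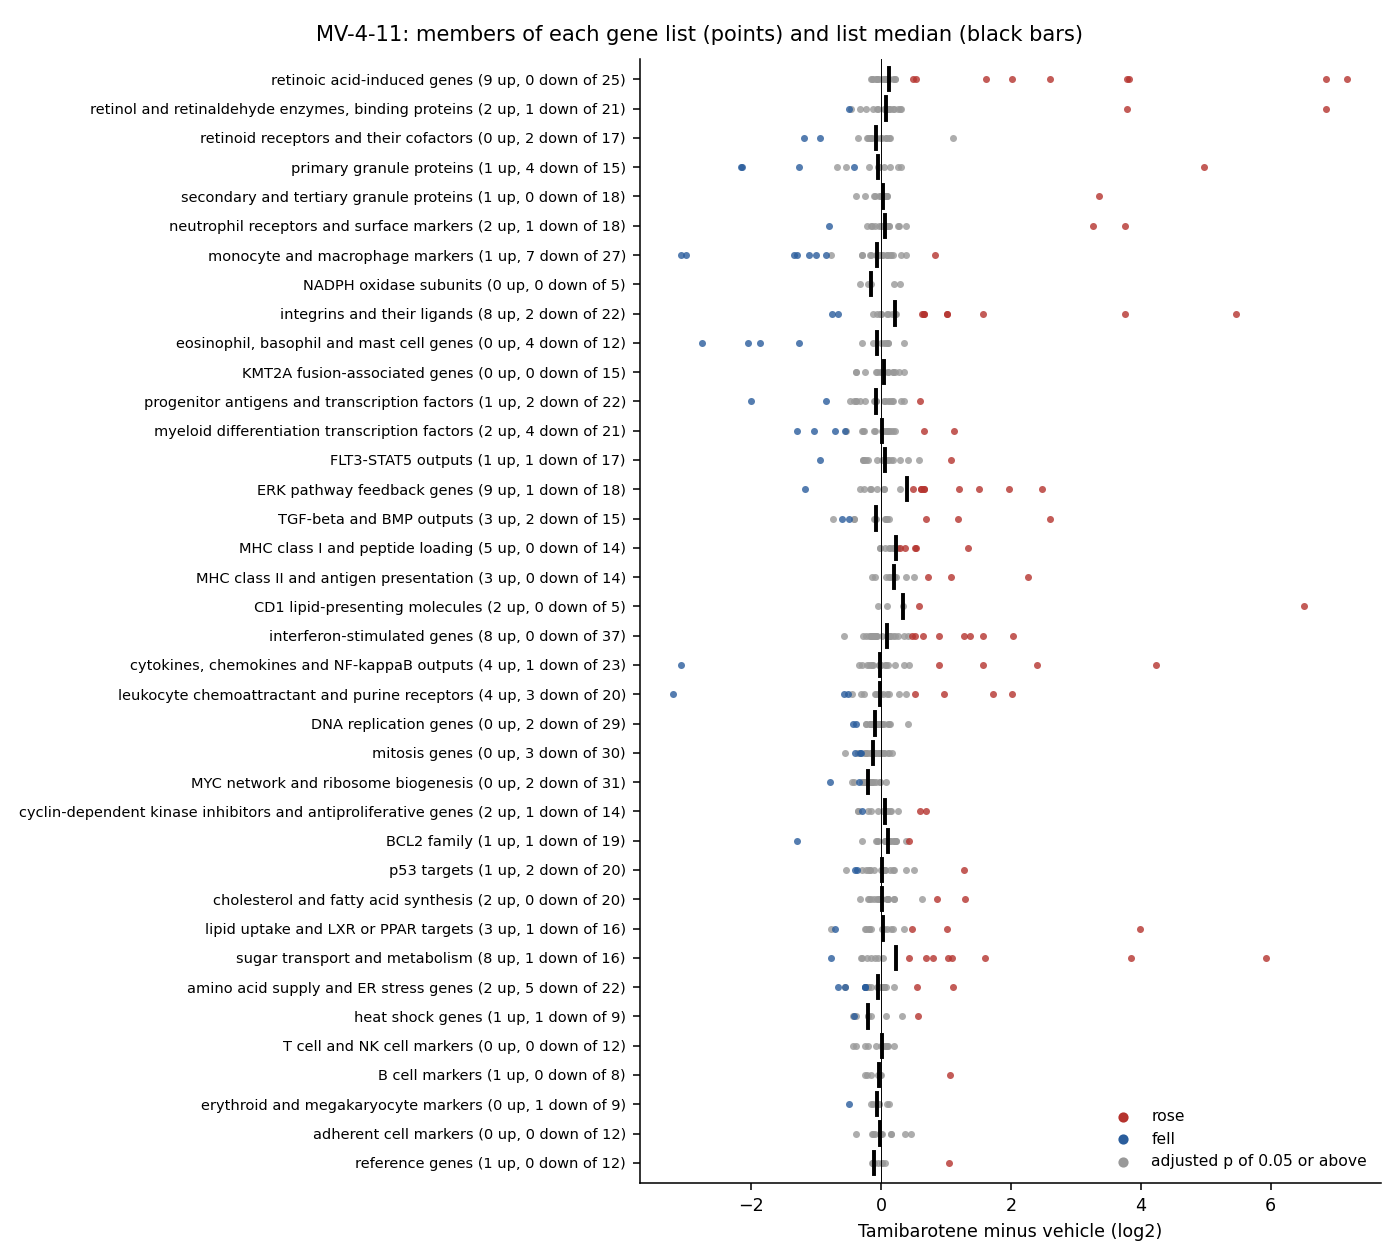
Change with tamibarotene in MV-4-11 (log2, x axis) for the measured members of each of the 38 gene lists (points; red rose, blue fell, grey did not pass) with the list median as a black bar and the counts beside each name. The medians lie close to 0 and each list that changed did so through part of its members, as in the 9 of 25 retinoic acid-induced genes.

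The change in MV-4-11 was then set against the unweighted mean change of the other 6 lines (Kasumi-1, KG-1a, NOMO-1, OCI-AML3, OCI-M1 and Sig-M5) in the same limma fit. RNA quality differed between the arms in 2 of these lines. The beta-actin 3' minus 5' difference was 0.81 and 1.89 in Sig-M5 vehicle arrays, against 0.31 to 0.34 in treated ones. In Kasumi-1 it was 1.18 and 0.30 in vehicle, against 0.20 to 0.22 in treated arrays. The difference passed in 869 genes (4.79%), with MV-4-11 higher in 551 (3.04%) and lower in 318 (1.75%). Without the Kasumi-1 and Sig-M5 arrays these counts were 948, 529 and 419. With all lines kept, 221 of the 236 genes with large rises were higher than in the mean of the other lines. Of the 107 with large falls 102 were lower. Each of the 44 largest rises and falls passed this test. In 18 of the 24 largest rises and in 15 of the 20 largest falls, the change in MV-4-11 also exceeded that of every single other line in its direction, which is a description and was not tested line by line. All these sets were picked for the size of their change in MV-4-11, which enters the difference. High counts are therefore favoured by the choice itself. Of the 1399 genes that passed in MV-4-11, 282 passed in no other line. That count is not a test of a difference between lines, and no share over all genes is given to set it against. The vehicle arm held only 2 arrays each for Sig-M5, for KG-1a and for Kasumi-1, against 3 for MV-4-11, so a change could pass less easily there.

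CD1D had the largest positive difference at 4.62, with changes in the other lines from -0.53 in Kasumi-1 to 5.15 in Sig-M5. BPI followed at 4.44, with at most 1.53 elsewhere, then ITGA6 (4.40), CD38 (4.26) and SEL1L3 (3.997). The BPI vehicle level in NOMO-1 was 8.67, beside a treated mean of 8.62 in MV-4-11. SEL1L3 passed upward in 3 of the other lines and downward in 2. The change of ALOX12 lay between -0.17 and 0.16 in the other lines and passed in none, and its difference was 3.88 (adjusted p = 1.06e-15). Its vehicle level was also the highest of the 7 lines, at 5.15 against 3.21 to 3.87. ARRDC4, an arrestin-domain protein, rose by 3.23 in MV-4-11 and ran from -1.04 to 0.60 elsewhere. CYP26A1 had a smaller difference (1.37), since it rose by 7.10 in OCI-M1 and 5.97 in OCI-AML3.

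Among the falls GPR183 had the largest difference at -3.09, with changes of -0.41 to 0.22 in the other lines, none of which passed. Its vehicle level of 6.20 in MV-4-11 was second to the 6.89 of NOMO-1, and the other 5 lines lay between 2.74 and 3.08. S100A8 differed from the mean by -2.61, although it fell by 3.11 in OCI-AML3 and was at 1.21 in Sig-M5. IL1RN (-2.51), CLEC12A (-2.48), TENT5C (-2.27), MICAL2 (-2.24), GSAP (-2.21) and IGLL1 (-2.14) followed. CLEC12A passed downward in no other line and upward in 1, and ITGA7, at -2.05 in MV-4-11, passed in none. Vehicle levels of CLEC12A were 5.93 in MV-4-11, 8.87 in NOMO-1 and 3.11 to 4.28 in the rest. For ITGA7 they were 8.26, 7.96 and 3.85 to 5.68. Whether the starting level bears on these changes was not tested.

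In the ERK feedback list the difference from the other lines passed as positive in 8 of 18 genes and as negative in 2. Over all genes 3.04% passed as higher and 1.75% as lower, and the list counts of this paragraph are read against these shares. PHLDA1 (2.16), DUSP4 (1.16), EGR1 (0.88), DUSP5 (0.79), ETV5 (0.79) and SPRY2 (0.73) were among the 8, and DUSP6, which rose in MV-4-11, did not pass (-0.22, adjusted p = 0.69). Of 22 integrins and ligands 8 were higher and 1 lower, of 27 monocyte genes 2 higher and 7 lower, and of the 12 eosinophil, basophil and mast cell genes 4 lower. The retinoic acid-induced genes were higher in 6 of 25 cases. For ASB2 (0.64), TGM2 (0.10) and HIC1 (0.30) the difference did not pass. RXRA fell in MV-4-11 and had a mean change of -0.65 in the other lines, and the difference of -0.28 did not pass.

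**Figure D5:**
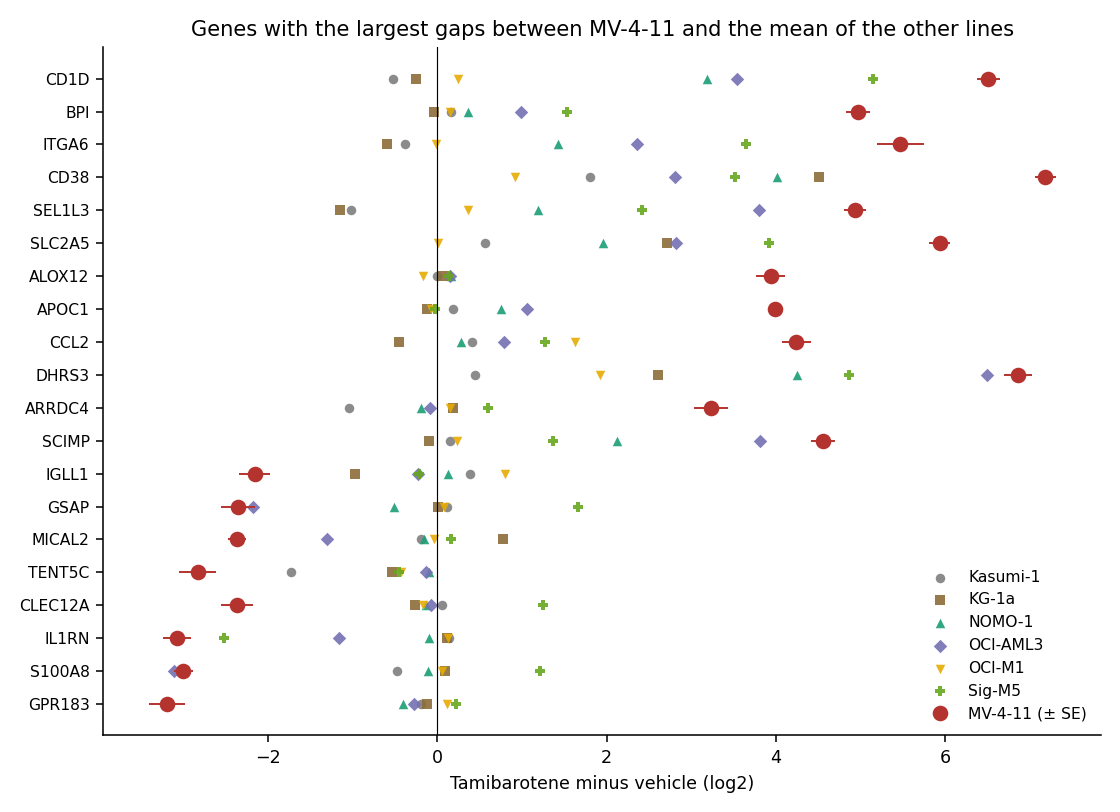
Change with tamibarotene (log2, x axis) in MV-4-11 (large red points, ± SE) and in each of the other 6 lines (small symbols) for the 12 highest and 8 lowest differences between MV-4-11 and the mean of the others. ALOX12 and GPR183 lie near 0 in the other lines, while CD38 rose in every line and S100A8 fell about as far in OCI-AML3.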

How the data were processed

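Gene expression in MV-4-11 cells was measured on 3 tamibarotene and 3 DMSO arrays. The deposited log2 values are RMA output that the authors obtained with affy, as the submitters' processing notes state. No version and no genome build are given in the sources used here, and whether arrays were normalized together is not given either. No further normalization was applied. Of 49395 probe sets, 1832 had several symbols, 2473 none and 102 were controls, and these were left out.

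All 39 arrays entered a limma 3.58.1 fit (R 4.3.3, data.table package, version 1.17.8; lmFit and eBayes, no trend, not robust) with a mean for each of 14 groups of line and arm and 25 residual degrees of freedom. The spread is therefore pooled over lines. Contrasts were tamibarotene minus vehicle in MV-4-11, and that difference minus the mean of the other 6 lines. The fit was tested on simulated data with 200 changed genes. It recovered 50.7% of log2 changes of 0.5, 94% of those of 1 and 98.5% of those of 2, with 15 false calls. Plots were drawn with Python 3.11.15, pandas 2.3.3 and matplotlib 3.10.9.

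Named genes are, among called genes with non-overlapping arms, the 24 that rose most and the 20 that fell most, up to 6 called members of each of 38 gene lists, all members of the retinoid, NADPH oxidase and KMT2A lists, the 12 highest and 8 lowest differences from the other lines, and the label's markers. Members of a list that did not pass, BATF2, and genes named for another probe set (TGM2, FPR2) were chosen after their values were seen where they fall outside this rule. The comparison and the lists were chosen with earlier results of these data known. Gene symbols come from the platform annotation: 44961 of the 44988 probe sets matched a RefSeq gene by Entrez ID.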

Additional observations from a re-analysis of the deposited data

Results flagged for a closer look

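The response of MV-4-11 differed from the mean response of the other 6 lines by the limma test of the difference itself in 869 genes. The 12 genes with the highest positive differences (log2) were CD1D (4.62), BPI (4.44), ITGA6 (4.40), CD38 (4.26), SEL1L3 (3.997), SLC2A5 (3.94), ALOX12 (3.88), APOC1 (3.70), CCL2 (3.59), DHRS3 (3.43), ARRDC4 (3.30) and SCIMP (3.29). The 8 with the lowest differences were GPR183 (-3.09), S100A8 (-2.61), IL1RN (-2.51), CLEC12A (-2.48), TENT5C (-2.27), MICAL2 (-2.24), GSAP (-2.21) and IGLL1 (-2.14). With 3 arrays in each arm, no search for single outlying arrays was made.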

How the results depend on the processing

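The 24 largest rises and 20 largest falls passed in every one of the 14 alternative settings in which they were tested. Their highest adjusted p-values were 0.000285 (RHOQ) and 0.00181 (CLEC12A). The size of the change was less stable for some of them. Over the settings it ran from 3.51 to 6.62 for CD1D, 1.84 to 4.03 for APOC1, 1.49 to 4.05 for IL31RA and -2.98 to -0.90 for GATA2. For others it moved little, as for CD38 (7.10 to 7.32) and VIM (-2.53 to -2.40). Of 141 called genes named by the rule, 113 were kept in all settings and 28 were lost in some, 24 of them when the MV-4-11 arrays were fitted alone. That fit, which rests on 6 arrays, called 904 genes (363 fallen), 880 of them shared with the 1399. Without the Kasumi-1 and Sig-M5 arrays in the pooled spread, 1711 genes were called in MV-4-11, 1378 of them shared. Testing every probe set called 2737 (1569 risen, 1168 fallen; 504 and 243 at least 2-fold), and 1644 for the difference from the other lines (972 higher, 672 lower). Array weights, estimated gene by gene because the REML method did not converge (a choice made after seeing the data), called 2606 (1196 risen, 1410 fallen) and 1607 (899 higher, 708 lower). The cause of the larger counts with weights was not tested. ALDH1A3 turned from 0.08 to -0.26 (adjusted p = 0.0212) with the mean of its probe sets.

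Leaving out 1 MV-4-11 array at a time gave 1117 to 1290 calls, with 643 to 712 risen, 446 to 647 fallen, 225 to 242 risen and 107 to 117 fallen at least 2-fold, and 664 to 760 differences from the other lines (432 to 494 higher, 229 to 320 lower).

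Replicate numbers are shared between arms, but the correlations of same-numbered deviations were 0.0995, 0.670 and 0.501, and tamibarotene replicate 3 correlated best with vehicle replicate 1 (0.569). The numbers were therefore not taken as pairs. With the replicate block 1586 genes were called (887 risen, 699 fallen), 1310 of them shared, and 966 differed from the other lines.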

Other observations

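Some genes that the report counts as not passing or as changed less than 2-fold had another probe set with a large change in MV-4-11. By limma over all probe sets, BICDL1 (3.05 against 0.43 by its brightest probe set), the actin-binding LSP1 (2.64 against 0.79), TACC2 (2.51 against 0.42), the growth factor TGFA (2.09 against 0.01), SLC12A4 (2.03 against 0.17) and the matrix protein THBS1 (1.97 against 0.05) rose. GSG1 fell by 2.34 (-0.02 by its brightest probe set), EBF3, a transcription factor, by 1.91 (-0.16) and OSR2 by 1.80 (-0.97). These genes were chosen after their values were seen.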
